A study of Danio rerio with 24 samples.

Results

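The 80 probe sets described here had a higher signal with TCDD than with vehicle at each of the 4 times sampled, in jaws dissected from zebrafish larvae. They were chosen among 15617 probe sets of an Affymetrix zebrafish array, on which a probe set is a group of short probes for a transcript, or in some cases for several. The difference of the mean log2 intensity, TCDD minus vehicle, had to be at least 0.2 (log2) at every time, and the mean log2 intensity over the 24 arrays at least 4. Array controls and the probe sets whose identifiers carry the numbers of cyp1a and sox9b were left out, and 8781 of the others reached that level. Of these, 88 passed, and the 80 with the highest smallest difference were kept. In the opposite direction, 69 probe sets were at or below -0.2 at all 4 times. The members were thus selected on the measured TCDD minus vehicle differences of the 4 times, and these are given below as a description.

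Larvae of the AB strain were kept from 96 h post fertilization (hpf) in water with 1 ng/ml TCDD, a dioxin, or with vehicle, which was 0.1% DMSO, and were rinsed after 1 h. DMSO is stated for vehicle, and whether the TCDD water held it is not given in the sources used here. Jaws were collected at 97, 98, 100 and 108 hpf, which is 1, 2, 4 and 12 h from the first contact with TCDD or vehicle. The head in front of the pectoral fin was freed of eyes and brain, and what remained was taken as the jaw. Each array held RNA pooled from 10 jaws, and 3 arrays, from 3 independent time courses, made up the TCDD group and the vehicle group at each time. TCDD binds the aryl hydrocarbon receptor (AHR), a transcription factor that waits in the cytoplasm with HSP90 and, once bound, pairs with ARNT in the nucleus and switches on genes of foreign-compound metabolism, above all the CYP1 cytochromes P450. In fish, AHR activation by dioxin in larval life is known for its harm to the heart and the jaw skeleton. A pooled sample cannot tell a change in the number of cells of a type from a change of RNA per cell.

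On the arrays, genes of cartilage and muscle were bright: col2a1a, the main cartilage collagen, had a mean log2 intensity of 13.1 and matn1 of 12.7, and the 12 muscle probe sets had a median of 10.4. Signal of the eyes and brain, which had been removed, was uneven: the lens genes cryaa and crybb1 were at 2.25 and 2.28, but the photoreceptor genes opn1sw1 and gnat2 reached 6.21 and 5.40, and neuronal sncb 10.4. The summed intensity of the eye list at 2 h lay between 118.7 and 2762 with TCDD and between 327.2 and 927.7 with vehicle. The part of this signal in the members' values was not tested. Median intensity differed between the times, from 13.8 to 15.0 at 12 h against 33.2 to 34.7 at 2 h. Levels are therefore compared within a time, except for some members whose levels at 12 h are set against 1 h below. The spiked dap transcript, whose 5′ signal minus its 3′ signal tracks labelling, separated TCDD replicate 3 at 12 h (-0.51) from the other 5 arrays of that time (-3.84 to -2.83), and TCDD replicate 2 at 1 h (-2.92) from its group. Vehicle replicate 1 at 1 h was apart in the immediate early gene fosab, at 11.05 (log2) against 6.58 and 6.59 on the other vehicle arrays.

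Members were of low to fairly high signal: their mean log2 intensity lay between 4.01 and 10.44 with a median of 6.65, against a median of 6.34 over the 8781. A single gene was named for 57 of the 80, which makes 55 genes, as cyp1c1 and pgrmc1 each have a pair of members, and 23 members have no gene named here and are given by their array identifier. The median difference over the 80 was 0.46, 0.54, 0.61 and 0.64 at 1, 2, 4 and 12 h (log2), while over the 8781 it was 0.06, -0.03, 0.00 and -0.01. At least 2-fold differences were seen in 15, 13, 21 and 20 members, and in 6 members at every time: both probe sets of cyp1c1, tiparp, cyb5a, sult6b1 and gchfr. At each time most members were separated from vehicle by less than 2-fold. The smallest differences of the 3 members at the end of the ranking, serp1, ndel1b and Dr.381.1.A1_at, were 0.210, 0.211 and 0.212, next to 0.206 each for vamp8, clptm1l and cd82b, which passed the rule and were not kept. At the limit of 0.2 itself stood sox19a and ndufaf2 (both 0.201) and rac1a (0.204) on one side, and rer1 (0.198), samd11 (0.195) and pmm2 (0.191) on the other.

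**Figure D1:**
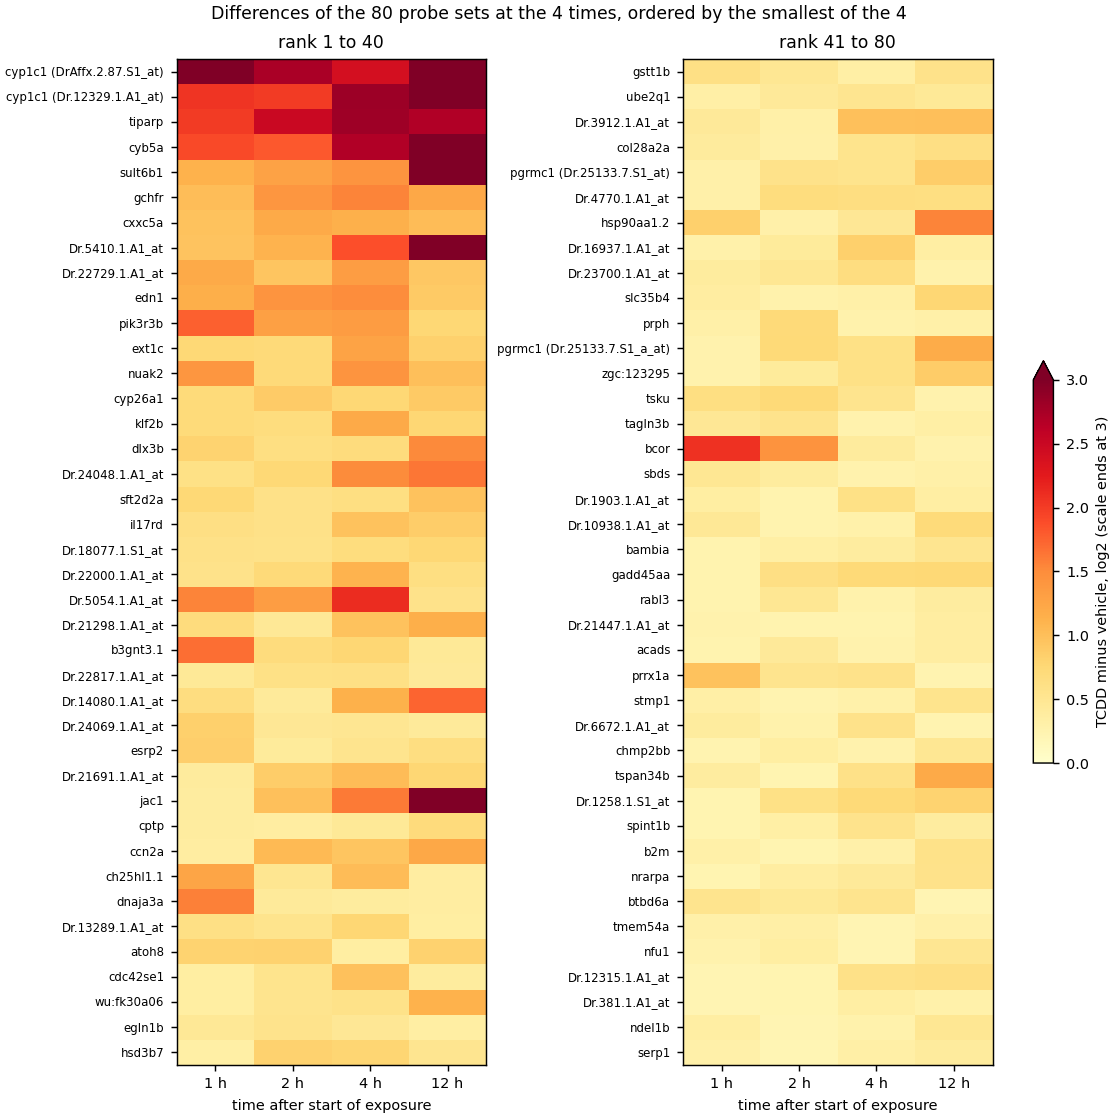
Each row is 1 of the 80 probe sets and each column a time. The colour gives the mean log2 intensity with TCDD minus that with vehicle (3 arrays each), on a scale that ends at 3. Rows are in order of the smallest of the 4 differences, so the paler rows of the right panel lie closer to the limit of 0.2, and the darkest cells are those of cyp1c1, cyb5a, sult6b1, tiparp, jac1 and Dr.5410.1.A1_at.

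In limma fits over all 24 arrays and 15502 probe sets, with Benjamini-Hochberg adjustment, 9 of the 80 were among the calls for a rise at 1 h, a call made for 0.103% of all probe sets. The count of members was 9 at 2 h (0.0839% of all), 19 at 4 h (0.323%) and 19 at 12 h (0.387%). No member was among the probe sets called lower, which made up 0.0129%, 0.00645%, 0.142% and 0.368% of all at the 4 times. The 3 TCDD arrays lay above all 3 vehicle arrays in 42 members at 1 h (7.60% of all probe sets), 51 at 2 h (4.69%), 47 at 4 h (3.61%) and 47 at 12 h (4.84%). Groups did not overlap at any of the 4 times in 20 members, and overlapped at all 4 in 7. The share over all probe sets without overlap at all 4 times was 0.161%. The rule used the same arrays, so nothing is read from these counts. By times called, 4 members were called at all 4 times, 5 at 3 times, 7 at 2 times, 11 at 1 time and 53 at none. The matching share over all probe sets is not given, and nothing is read from this split either. The 4 called throughout were cyp1c1 (Dr.12329.1.A1_at), cyb5a, sult6b1 and edn1.

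The first group of members by role, oxidation and conjugation of small molecules, held 11 probe sets of 9 genes. Cytochrome P450 enzymes place an oxygen on their substrates, cytochrome b5 passes them electrons, and sulfotransferases and glutathione transferases add a group that makes the product more soluble. The median difference of the 11 was 0.71, 0.82, 0.77 and 0.89 at 1, 2, 4 and 12 h (log2).

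Cyp1c1, a CYP1 enzyme of fish without a counterpart in mammals, was bright on Dr.12329.1.A1_at. Its log2 intensity was 11.11, 10.81 and 10.66 with TCDD at 1 h, against 8.61, 8.93 and 8.87 with vehicle. It was 12.46, 12.10 and 11.80 with TCDD at 2 h, against 10.34, 9.77 and 10.21 with vehicle. At the later times it was 11.82, 11.93 and 11.29 with TCDD at 4 h, against 8.51, 9.39 and 8.71 with vehicle, and 11.46, 11.70 and 10.67 with TCDD at 12 h, against 6.49, 6.35 and 5.61 with vehicle. The groups did not overlap at any time, with differences of 2.05, 2.02, 2.81 and 5.13 at 1, 2, 4 and 12 h (log2, SE 0.29 from limma).

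A second cyp1c1 probe set, DrAffx.2.87.S1_at, headed the ranking with differences of 3.73, 2.74, 2.40 and 3.08 (log2) but was far less even, with an SE of 1.34, and was called at no time. The 3 arrays of a group read 9.37, 4.57 and 5.62 with TCDD at 1 h, against 2.43, 2.52 and 3.43 with vehicle. It was 4.98, 3.01 and 8.69 with TCDD at 12 h, against 2.50, 2.46 and 2.50 with vehicle. The lowest TCDD array of each of these times had the lowest dap 5′ minus 3′ signal of its group (-2.92 at 1 h and -3.84 at 12 h), and the highest had the highest (0.16 and -0.51). For the lowest TCDD array this was not so at 2 and 4 h. The lowest at 2 h, replicate 3 at 8.29, had the highest dap signal of its group (-0.74). The lowest at 4 h, replicate 1, had -0.79, against -1.32 for replicate 3. At 4 h TCDD replicate 1, at 4.42, lay below vehicle replicate 1, at 5.95. With the dap signal as a covariate its difference at 12 h was 1.29, whereas that of Dr.12329.1.A1_at was 5.30. Another cyp1c1 probe set, DrAffx.2.87.A1_at, had a mean log2 intensity of 2.65 and did not pass the level cut.

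Cyb5a, cytochrome b5, was also bright. Its log2 intensity was 10.90, 10.68 and 10.33 with TCDD at 1 h, against 8.38, 9.16 and 8.66 with vehicle. It was 12.02, 12.01 and 11.63 with TCDD at 4 h, against 9.06, 9.17 and 9.36 with vehicle. At 12 h the values were 11.89, 11.70 and 11.05 with TCDD, against 6.65, 6.89 and 6.43 with vehicle. The groups stood apart at all times, and the differences were 1.90, 1.81, 2.69 and 4.89 at 1, 2, 4 and 12 h (log2, SE 0.22). Sult6b1, a cytosolic sulfotransferase, was tight between arrays. It had log2 intensities of 10.79, 10.84 and 10.70 with TCDD at 1 h, against 9.47, 9.68 and 9.81 with vehicle, and of 10.91, 10.56 and 10.75 with TCDD at 12 h, against 7.89, 7.56 and 7.18 with vehicle. Its differences were 1.12, 1.29, 1.43 and 3.20 (log2, SE 0.17), with no overlap at any time.

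Other enzymes differed by less. Cyp26a1, which degrades retinoic acid, was dim, with a mean log2 intensity of 4.51. Its differences as deposited were 0.71, 0.89, 0.76 and 0.89 (log2, SE 0.39). They were 0.69, 0.78, 0.72 and 1.27 after quantile normalization of all arrays. With the dap signal as a covariate they were 0.80, 0.99, 0.81 and 0.58. Its TCDD and vehicle arrays overlapped at 4 h, where they held 4.50, 6.52 and 5.32 with TCDD, against 5.47, 4.44 and 4.14 with vehicle. Ch25hl1.1, related to the cholesterol 25-hydroxylases, had its largest difference at 1 h (1.25, 0.51, 1.02 and 0.37 at the 4 times). Its difference at 12 h was 0.0090 with the dap signal as a covariate and -0.15 without TCDD replicate 3 of that time. Pgrmc1, a haem-binding membrane protein that in mammals partners cytochromes P450, was present with 2 probe sets, whose largest differences were both at 12 h, 0.86 and 1.18. They share an identifier number, so they are not separate evidence. The differences of hsd3b7, an enzyme of bile acid synthesis, were 0.34, 0.82, 0.77 and 0.52, those of gstt1b, a glutathione transferase, 0.62, 0.49, 0.33 and 0.57, and those of acads, a mitochondrial enzyme of fatty acid oxidation, 0.25, 0.44, 0.26 and 0.37. TCDD and vehicle arrays overlapped at 1, 2 and 12 h for hsd3b7, at 1 and 4 h for gstt1b, and at 1, 4 and 12 h for acads. Limma called cyp26a1, ch25hl1.1, hsd3b7, gstt1b and acads at no time.

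**Figure D2:**
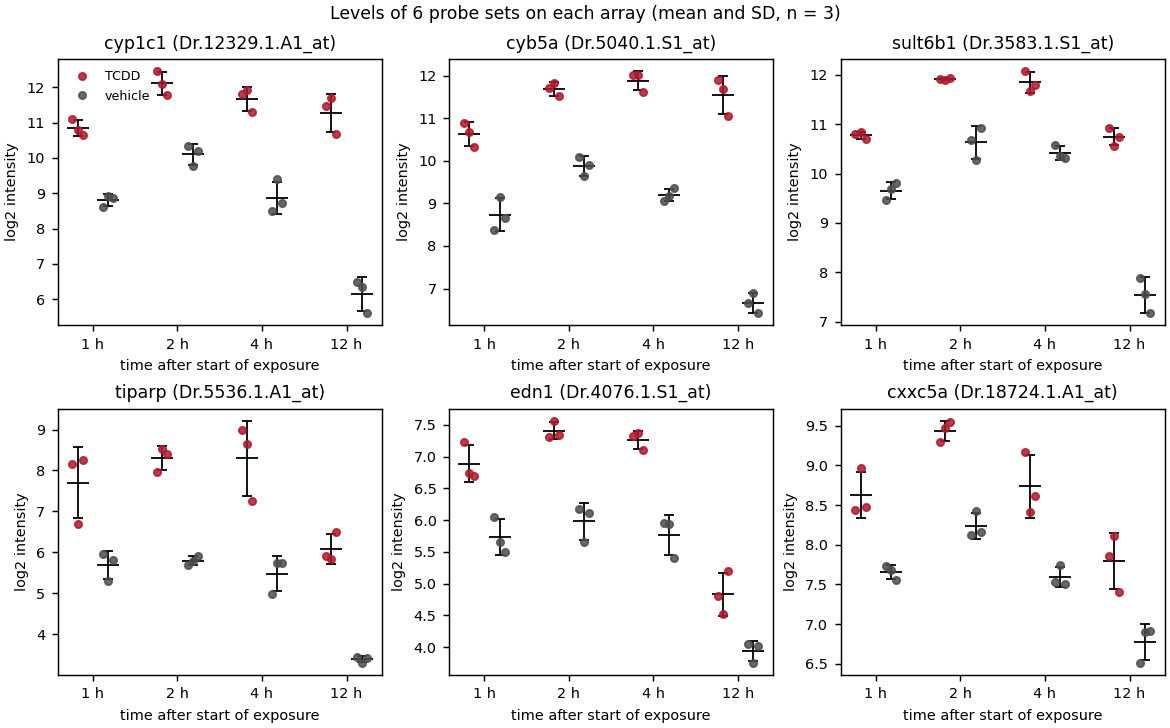
Log2 intensity of 6 members on each array, by time after the start of the exposure. Points are single arrays (TCDD on the left in red, vehicle on the right in grey), and the line and bars are the mean and SD of 3 arrays. TCDD and vehicle arrays do not overlap at any time for the 6, and the gap of cyp1c1, cyb5a and sult6b1 is widest at 12 h (5.13, 4.89 and 3.20), while that of edn1 is widest at 4 h (1.50). Levels at different times are not on 1 scale.

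The members closest to the receptor itself were tiparp and hsp90aa1.2. Tiparp is an ADP-ribosyltransferase that AHR switches on and that in mammals restrains AHR in turn. On single arrays it read 8.16, 6.70 and 8.25 with TCDD at 1 h, against 5.96, 5.30 and 5.82 with vehicle. It was 7.96, 8.53 and 8.40 with TCDD at 2 h, against 5.70, 5.79 and 5.91 with vehicle. At 4 h it was 9.00, 8.63 and 7.25 with TCDD, against 4.99, 5.73 and 5.73 with vehicle, and at 12 h 5.91, 5.84 and 6.51, against 3.45, 3.31 and 3.43. Every TCDD array lay above every vehicle array of its time, although TCDD replicate 2 at 1 h and TCDD replicate 3 at 4 h were lower than the other TCDD arrays. It was called at 2, 4 and 12 h. Its differences as deposited were 2.01, 2.50, 2.81 and 2.69 at the 4 times (log2, SE 0.40). After quantile normalization of all arrays they were 1.93, 2.57, 2.80 and 3.34. With 16 added to every intensity they were 1.74, 2.21, 2.44 and 1.66, so the course in time depends on the scale. Hsp90aa1.2, an HSP90 chaperone gene whose relatives serve many client proteins, had differences of 0.83, 0.30, 0.48 and 1.55 and was called at 12 h alone. Its other probe set, Dr.610.2.S1_at, gave 0.70, 0.05, 0.32 and 0.95, above 0 at each time but under 0.2 at 2 h.

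Of the 26 genes in a list for the AHR response, 11 were on the array with 14 probe sets, and 4 of these were members. In limma 3, 3, 5 and 5 of the 14 were higher with TCDD at 1, 2, 4 and 12 h and none was lower, against 0.103%, 0.0839%, 0.323% and 0.387% higher over all probe sets. The 4 members were chosen on these same differences, and the list was chosen with earlier results of these data known. Nothing is therefore read from this comparison. The calls were cyp1c1, sult6b1 and cyp1a at 1 h, cyp1c1, sult6b1 and tiparp at 2 h, and these 4 genes with ahr2 at 4 and 12 h. The median difference of the 14 was 0.09, 0.60, 0.14 and 0.56 (log2). Ahr2, the receptor that carries most of the dioxin response in zebrafish, was not a member. Its log2 intensity was 8.38, 7.50 and 7.67 with TCDD at 1 h, against 7.44, 7.63 and 8.07 with vehicle, which overlap. It was 8.05, 8.07 and 7.58 with TCDD at 12 h, against 5.83, 6.16 and 5.93 with vehicle. Its differences of 0.13, 0.66, 1.22 and 1.93 had limma adjusted p = 0.995, 0.762, 0.0302 and 0.000376. Cyp1a, left out by its identifier, had differences of 1.87, 1.55, 3.78 and 9.02. The remaining listed genes, nqo1, cbr1l, fabp2, arnt2, ahr1a and cyp1d1, were called at no time; the last 3 had mean log2 intensities between 2.17 and 2.61.

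**Figure D3:**
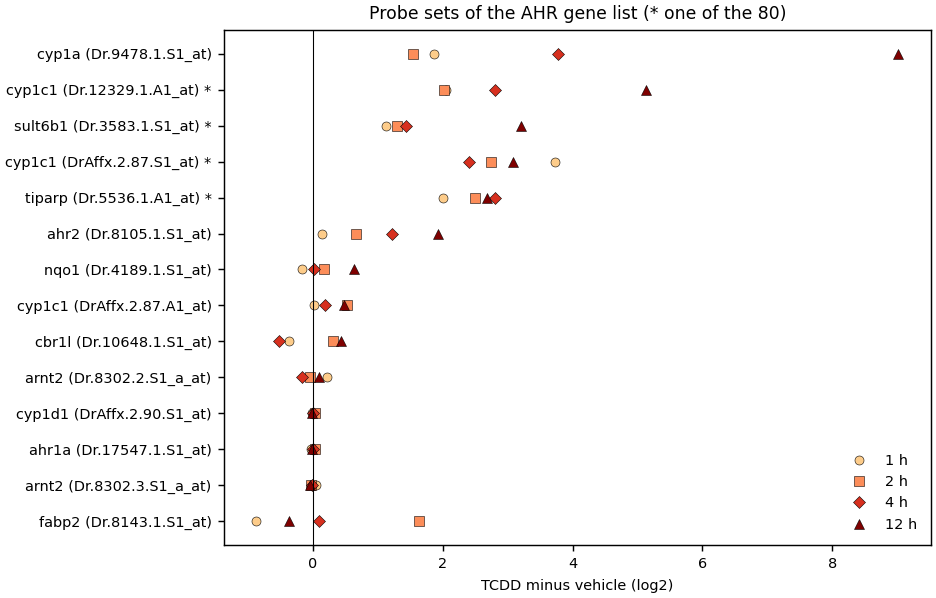
TCDD minus vehicle (log2, means of 3 arrays each) for the 14 probe sets of the AHR gene list, ordered by the difference at 12 h, with a marker for each time. Members are starred. The 4 members are above 1 at every time, ahr2 moves from 0.13 at 1 h to 1.93 at 12 h, and the 5 probe sets with a mean log2 intensity under 4 lie between -0.16 and 0.53.

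The next group by role, ligands, receptors and carriers of signals, held 11 members with median differences of 0.53, 0.62, 0.94 and 0.75 at 1, 2, 4 and 12 h (log2). Edn1 encodes endothelin 1, the ligand that patterns the lower jaw of fish earlier in development. By array it stood at 7.22, 6.74 and 6.69 with TCDD at 1 h, against 6.04, 5.65 and 5.50 with vehicle. It was 7.31, 7.56 and 7.34 with TCDD at 2 h, against 6.17, 5.65 and 6.11 with vehicle. At 4 h it was 7.32, 7.37 and 7.10 with TCDD, against 5.95, 5.93 and 5.41 with vehicle, and at 12 h 4.80, 4.52 and 5.19, against 4.05, 3.76 and 4.02. The arrays of the treatments did not overlap at any time. The differences as deposited were 1.16, 1.43, 1.50 and 0.89 (log2, SE 0.20), smallest at 12 h. After quantile normalization of all arrays they were 1.08, 1.49, 1.49 and 1.11, smallest at 1 h.

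Pik3r3b, a regulatory subunit of phosphoinositide 3-kinase, had its largest difference at 1 h, where it was 9.51, 10.19 and 9.53 with TCDD, against 8.04, 8.01 and 7.89 with vehicle. At 12 h it was 8.26, 8.45 and 7.68, against 7.14, 7.41 and 7.56, still without overlap, and its differences were 1.76, 1.30, 1.34 and 0.76 (log2, SE 0.23). The annotation gives id2a for Dr.5428.1.S1_at, which shares the identifier number of this member and differed by 0.00, -0.07, -0.18 and -0.02. Ccn2a, connective tissue growth factor, was among the brightest members. Its log2 intensity was 11.03, 10.58 and 10.52 with TCDD at 1 h, against 10.45, 10.19 and 10.37 with vehicle, but 9.48, 9.90 and 9.79 with TCDD at 12 h, against 8.57, 8.44 and 8.49 with vehicle. Its differences were 0.37, 1.05, 0.94 and 1.22 (log2, SE 0.18), with TCDD above vehicle on every array of a time. Nuak2, a kinase of the AMPK family, differed by 1.40, 0.73, 1.42 and 1.01, and il17rd, a receptor that dampens FGF signals, by 0.62, 0.59, 0.97 and 0.86.

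The other members of this group lay nearer to the limit. Egln1b, a prolyl hydroxylase that marks HIF proteins, which also pair with ARNT, differed by 0.47, 0.56, 0.47 and 0.34, and its arrays overlapped at 12 h. Gadd45aa, a gene of growth arrest and DNA damage, differed by 0.25, 0.62, 0.73 and 0.75, and at 12 h its TCDD replicate 3, at 5.30, was well above the other 2 TCDD arrays, at 3.66 and 4.05. Bambia, a pseudoreceptor that lowers BMP and TGF-beta signals, differed by 0.25, 0.33, 0.39 and 0.52, and tsku, a secreted leucine-rich protein, by 0.64, 0.73, 0.53 and 0.26. The differences of cdc42se1, an effector of the GTPase Cdc42, were 0.36, 0.54, 0.98 and 0.39, and those of btbd6a, an adaptor of ubiquitin ligases, 0.53, 0.46, 0.53 and 0.22. None of these 6 was called at any time. For cdc42se1 the difference was -0.06 at 1 h without vehicle replicate 3, and at 12 h it was -0.35 without vehicle replicate 3 and -0.09 without TCDD replicate 2.

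A further group, 8 regulators of transcription and splicing, had median differences of 0.83, 0.66, 0.55 and 0.71. Cxxc5a, a zinc finger protein that in mammals tunes Wnt and BMP signals, varied least over time among the 8. The log2 intensity of its arrays was 8.44, 8.96 and 8.48 with TCDD at 1 h, against 7.73, 7.68 and 7.56 with vehicle, and 7.86, 8.12 and 7.41 with TCDD at 12 h, against 6.51, 6.89 and 6.92 with vehicle. Its differences were 0.97, 1.204, 1.14 and 1.02 (log2, SE 0.19), without overlap at any time. Klf2b, related to the flow-responsive factor of vessel walls, differed by 0.71, 0.67, 1.202 and 0.77 and did not overlap either. Bcor, a corepressor, was early: 6.29, 5.82 and 5.88 with TCDD at 1 h, against 4.04, 3.39 and 4.32 with vehicle, and 5.38, 6.06 and 6.25 with TCDD at 2 h, against 4.59, 4.66 and 4.14 with vehicle, both without overlap. At 4 and 12 h its arrays overlapped, and the differences were 2.08, 1.43, 0.41 and 0.26 (log2, SE 0.27).

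Among factors of the jaw and its skin, dlx3b, a homeobox gene of placodes and pharyngeal arches, differed by 0.80, 0.64, 0.69 and 1.52, but its arrays overlapped at 1 and 4 h. At 12 h it was 5.36, 4.30 and 7.26 with TCDD, against 4.11, 4.13 and 4.13 with vehicle, and the highest of these, TCDD replicate 3, is the array whose dap signal stood apart. With the dap signal as a covariate that difference was 0.65 in place of 1.52. Prrx1a, a homeobox gene of connective tissue in the head and limbs, had its largest difference at 1 h (0.96, 0.53, 0.57 and 0.25), and with the dap signal as a covariate its difference at 12 h was -0.0091. Atoh8, a basic helix-loop-helix factor, differed by 0.80, 0.82, 0.36 and 0.82, esrp2, which sets epithelial splicing, by 0.85, 0.41, 0.53 and 0.65, and nrarpa, a feedback inhibitor of Notch, by 0.23, 0.37, 0.44 and 0.56. For nrarpa it was -0.02 at 1 h without TCDD replicate 2 and -0.03 at 4 h without vehicle replicate 1. None of these 5 was called at any time.

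The 25 named members outside these groups were smaller on the whole, with medians of 0.36, 0.39, 0.39 and 0.50. Gchfr, which regulates GTP cyclohydrolase and so the supply of tetrahydrobiopterin, had the highest rank among them, with differences of 1.02, 1.40, 1.56 and 1.23. Its arrays at 12 h were 4.82, 5.81 and 6.83 with TCDD, against 4.30, 4.41 and 5.08 with vehicle, which overlap. Of these 25, jac1 had the difference that grew most: its arrays overlapped at 1, 2 and 4 h, but at 12 h it was 8.86, 8.73 and 8.58 with TCDD, against 5.30, 5.33 and 5.58 with vehicle. Its differences were 0.38, 0.99, 1.61 and 3.32 (log2, SE 0.51). Ext1c, of the enzymes that build heparan sulfate, differed by 0.75, 0.73, 1.27 and 0.82, and b3gnt3.1, a glycosyltransferase, by 1.68, 0.69, 0.76 and 0.45 with its largest value at 1 h. Dnaja3a, a mitochondrial chaperone, had a large value at 1 h only (1.57, 0.43, 0.39 and 0.37), with arrays that overlapped at the 3 later times and a difference of -0.13 at 12 h without TCDD replicate 1. Sft2d2a, a protein of vesicle traffic, differed by 0.75, 0.60, 0.64 and 0.97.

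The 23 members with no gene named had medians of 0.45, 0.49, 0.74 and 0.64. Dr.5410.1.A1_at was the largest of them late. Its log2 intensity was 8.92, 7.97 and 8.39 with TCDD at 1 h, against 7.09, 7.46 and 7.88 with vehicle, and 8.92, 9.14 and 9.26 with TCDD at 12 h, against 5.38, 5.48 and 5.50 with vehicle. Its differences were 0.95, 1.11, 1.86 and 3.65 (log2, SE 0.23), and its arrays did not overlap at any time. Dr.22729.1.A1_at was steady, at 1.21, 0.94, 1.33 and 0.92, and was called at 3 times. Dr.18077.1.S1_at differed by 0.60, 0.59, 0.67 and 0.75, did not overlap at any time and was called at 12 h alone. Dr.5054.1.A1_at, at the lowest mean level of all members (4.01), differed by 1.55, 1.33, 2.12 and 0.57. It reached the level cut only through its TCDD arrays. Its vehicle arrays read 2.66 to 3.01 at 4 h and 2.89 to 2.98 at 12 h, so these differences are from a dim signal. Dr.14080.1.A1_at, Dr.24048.1.A1_at and Dr.3912.1.A1_at were each called at 2 times, with differences at 12 h of 1.74, 1.63 and 1.00.

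The members shared a direction by choice but not a course in time. The largest of the 4 differences was at 1 h in 12 members, at 2 h in 10, at 4 h in 21 and at 12 h in 37. Over the 8781 probe sets the shares were 37.2%, 14.5%, 24.7% and 23.6%. The difference at 12 h exceeded that at 1 h by at least 1 (log2) in 7 members: cyp1c1 (Dr.12329.1.A1_at), cyb5a, sult6b1, jac1, Dr.5410.1.A1_at, Dr.14080.1.A1_at and Dr.24048.1.A1_at. The reverse held in 4, bcor, b3gnt3.1, dnaja3a and pik3r3b. These groups rest on the deposited values. On quantile-normalized values the 7 remained, and tiparp met their limit too (1.93 and 3.34 at 1 and 12 h). Of the 4, bcor remained (1.95 and 0.48). The others fell short: pik3r3b (1.75 and 0.77), b3gnt3.1 (1.57 and 0.63) and dnaja3a (1.42 and 0.47). With the dap signal as a covariate pik3r3b and dnaja3a fell short. DrAffx.2.87.S1_at, ch25hl1.1 and prrx1a then met the reverse limit, and tspan34b the limit of the 7. The deposited contrasts are those of the rule, and no test of them is given.

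**Figure D4:**
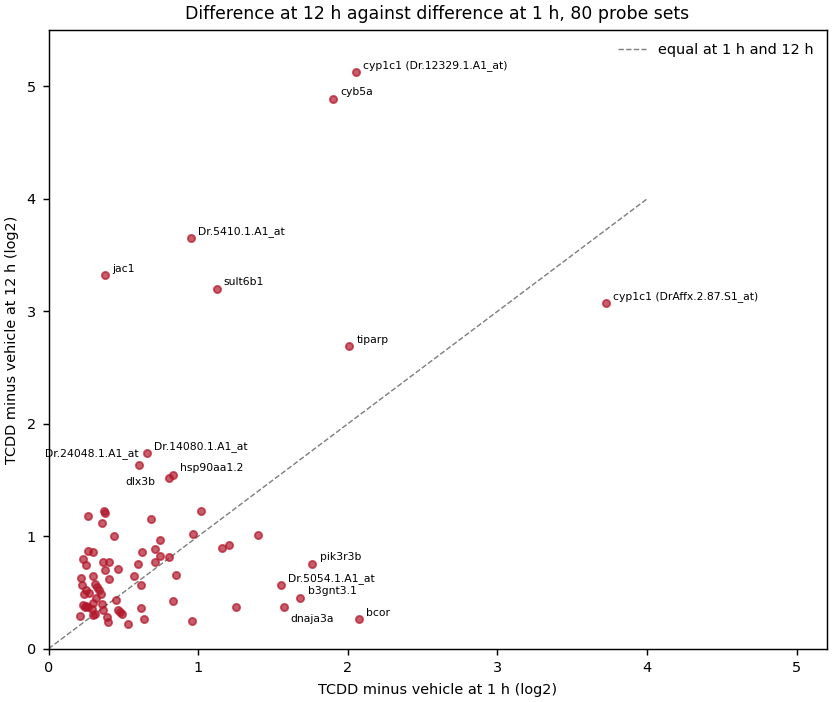
Each point is 1 of the 80 probe sets, placed by its difference (TCDD minus vehicle, log2) at 1 h on the x axis and at 12 h on the y axis. The dashed line marks equal differences. Points far above the line include cyp1c1 (2.05 and 5.13), cyb5a (1.90 and 4.89), sult6b1 and jac1, and bcor (2.08 and 0.26) lies farthest below it.

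For the 7 members whose difference grew, the levels of each treatment at 12 h were set against those at 1 h. Levels as deposited are not on 1 scale between times, so these values are a description. As the 7 were picked for this growth, a TCDD change above the vehicle change follows from the choice. As deposited, their TCDD level at 12 h minus that at 1 h had a median of 0.68 (log2, from -0.09 to 2.32), and their vehicle level one of -2.02 (from -2.66 to 0.01). Over the 8781 the same medians were -0.99 and -0.89. After quantile normalization of all 24 arrays together, which gives every array the same distribution, the TCDD change of the 7 had a median of 1.69 (from 0.90 to 3.31) and the vehicle change one of -1.05 (from -1.68 to 0.94). On that scale vehicle was lower at 12 h by 1.68 for cyp1c1, 1.12 for cyb5a and 1.13 for sult6b1 (changes of -1.68, -1.12 and -1.13), whereas jac1 was 0.35 higher.

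The members as a whole can also be read array by array. The median over the 80 of an array's log2 intensity minus the vehicle mean of its time was 0.66, 0.59 and 0.33 on the TCDD arrays at 1 h, and between 0.01 and 0.03 on the vehicle arrays. It was 0.54, 0.62 and 0.49 with TCDD at 2 h, against 0.13, -0.20 and 0.06 with vehicle. At 4 h it lay between 0.58 and 0.69 with TCDD and between -0.09 and 0.04 with vehicle, and at 12 h between 0.69 and 0.71 with TCDD and between 0.0049 and 0.024 with vehicle. TCDD replicate 3 at 1 h and vehicle replicate 2 at 2 h were the lowest of their groups. Of the 80 members, 70 to 80 were above the vehicle mean on each TCDD array. The rule used these same arrays, so TCDD values above the vehicle mean follow from the choice. Vehicle arrays were set against their own mean, which centres their values near 0. The medians and counts therefore describe the spread between arrays, and no response to TCDD is read from them.

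The response was also read on arrays that took no part in the differences used for a choice, although the level cut is a mean over all 24 arrays. The rule was applied to 2 of the 3 replicate numbers, the 80 highest-ranked probe sets were kept, and each was then read on the TCDD and vehicle arrays of the number left out. With replicate 1 left out, 34 of 80 (42.5%) were higher with TCDD than with vehicle at all 4 times in replicate 1, against 5.57% of the 8781. With replicate 2 left out it was 39 of 80 (48.8%), against 8.93%, and with replicate 3 left out 38 of 80 (47.5%), against 5.89%. Each reading set 1 TCDD array against 1 vehicle array of a time. All 80 were read on the same arrays, so they are not separate evidence. The choices include Dr.5054.1.A1_at, which reached the level cut only through its TCDD arrays. The median difference of the left-out arrays lay between 0.24 and 0.67 (log2) over the 12 combinations of time and replicate, and between -0.07 and 0.09 over the 8781.

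Rank within the choice was set beside these values. Among the 20 ranked highest in each choice, 15, 16 and 17 were above vehicle at all 4 times on the left-out arrays, and among the remaining 60 it was 19, 23 and 21. The 3 choices shared 48, 47 and 53 probe sets with the 80. In all, 28 probe sets were chosen each time, all of them members. Every replicate took part in this, so what follows is a description: 22 of the 28 had TCDD above vehicle at all 4 times in each of the 3 replicates. The 22 include cyp1c1 (Dr.12329.1.A1_at), tiparp, cyb5a, sult6b1, gchfr, cxxc5a, edn1, pik3r3b, ext1c, nuak2, klf2b, il17rd, b3gnt3.1 and ccn2a. The other 6 were DrAffx.2.87.S1_at of cyp1c1, dlx3b, sft2d2a, esrp2, Dr.21298.1.A1_at and Dr.21691.1.A1_at.

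**Figure D5:**
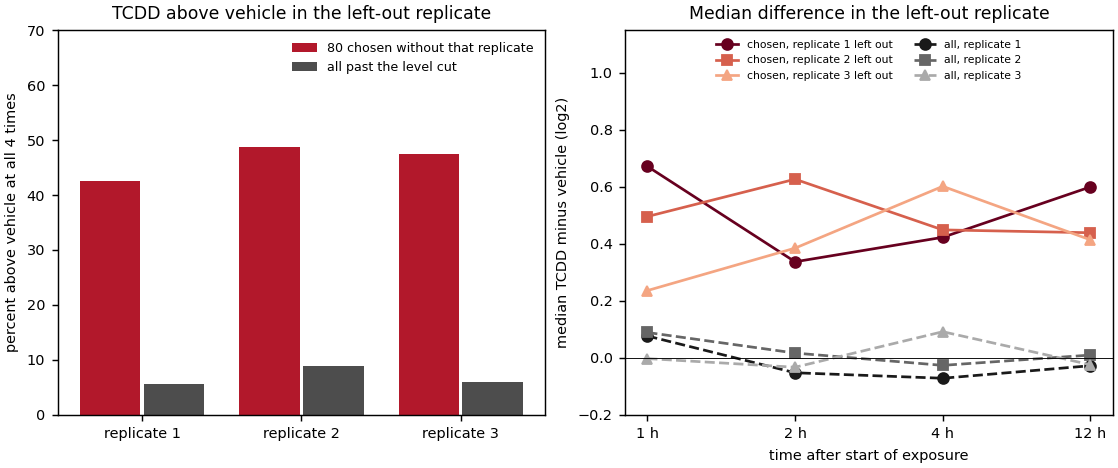
Left: percent of probe sets above vehicle at all 4 times on the arrays of the replicate number left out, for the 80 chosen without that number (red) and for all 8781 past the level cut (grey). Right: their median TCDD minus vehicle difference (log2) on the left-out arrays by time. The red bars are at 42.5%, 48.8% and 47.5%, and the grey ones between 5.57% and 8.93%.

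Other probe sets for the same genes gave a mixed picture. The array holds 16 further probe sets for 9 of the member genes, of which 7 had a mean log2 intensity under 4. Of the 9 brighter ones, 3 were above 0 at all 4 times: those of hsp90aa1.2, Dr.10196.1.S1_at of chmp2bb (0.23, 0.18, 0.02 and 1.06) and Dr.4716.1.A1_at of nrarpa (0.08, 0.13, 0.15 and 0.36). The other 6, of prph, spint1b, nrarpa, chmp2bb and zgc:123295, were at or below 0 at 1 or more times. None of these 16 had passed the rule, so lower values are likelier among them by choice. For tiparp, cyb5a, sult6b1 and edn1 the array has no other probe set with that name.

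Markers of cell types and of other responses were read beside the members, and their part in the members' values was not tested. No member was in a list other than that for the AHR response. The members are 80 of the 8781 past the level cut, and the other lists hold 2 to 17 probe sets each. At that share few or no members would fall in them, so nothing is read from this. The cartilage probe sets, 17 of 10 genes, were lower with TCDD at 1 h in 17 of 17 (median -0.40) and above vehicle in 2 of 17 at 2 h (median -0.27), with no call at either time. At 4 and 12 h 9 and 4 of 17 were above vehicle, and sox9b alone was called, lower by limma at both (-2.35 and -3.77). Their summed intensity at 1 h was 25070 to 37970 with TCDD and 39390 to 44780 with vehicle. Of the 17, 14 reached the level cut, and several are for hapln1a, so they are not separate evidence. Sums of other lists also stood apart at some times, in either direction. With TCDD bone was at 7277 to 9197 at 1 h, against 9832 to 10370 with vehicle. Muscle was at 9180 to 13040 at 12 h, against 15760 to 17580, and endothelium at 90.6 to 110.7 at 4 h, against 68.5 to 84.4. The myeloid probe sets, 7 of 4 genes, had a summed intensity that did not overlap at any time: 350.2 to 815.3 with TCDD at 12 h, against 71.5 to 84.5 with vehicle. Without the 4 probe sets that share the identifier number of cyp1a it was 90.9 to 134.1 with TCDD at 12 h, against 43.8 to 56.6 with vehicle, and at 1 h 88.5 to 207.6, against 91.2 to 107.4, which overlap. Among them cxcr4b, a chemokine receptor, was called at 2, 4 and 12 h (differences of 1.35, 2.05 and 1.67), and Dr.9478.2.S1_at, which the annotation names mpx and which shares its identifier number with cyp1a, at 4 and 12 h (3.49 and 5.77). Whether that probe set reads mpx or cyp1a was not tested. The myeloid genes lyz and lcp1 differed by 0.05 and 0.18 at 12 h and were called at no time.

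None of the 12 probe sets for NRF2 targets, genes of the oxidative stress response, was a member, and nothing is read from so short a list. Of the 12, gclm was called higher at 12 h (0.85, limma adjusted p = 0.00416) and 1 prdx1 probe set lower at 4 h (-1.27, limma adjusted p = 0.0221). The median differences of the 12 were -0.23, 0.07, -0.15 and 0.35. Of 16 probe sets for stress and immediate early genes, hsp70.3 was called higher at 4 h (2.89, limma adjusted p = 2.97e-05). At 1 h 3 of the 16 were above vehicle (median -0.82), where vehicle replicate 1 was high: their summed intensity was 2024 to 3309 with TCDD and 2156 to 7516 with vehicle. Without that array 75 probe sets passed the rule in place of 88, and 6 members were called at 1 h in place of 9. Over all probe sets 7 were then called higher at 1 h in place of 16.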

How the data were processed

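The values are those of the table of the whole series that the authors deposited: intensity on a linear scale, 1 value per probe set and array. RMA and GCRMA are named per the submitters' processing notes, with no version or role given in the sources used here. The medians of the columns are close within a time and differ between times, so TCDD was compared with vehicle within a time. Values were put on a log2 scale. Members and gene lists were chosen with earlier results of these data known. limma 3.58.1 in R 4.3.3 (lmFit, eBayes) was fitted over 24 arrays, 8 groups and 15502 probe sets, leaving out 115 array controls, with Benjamini-Hochberg adjustment at 0.05. The fit was also run on simulated arrays with independent noise and changes of 1 or 2 (log2). That run does not cover the smaller differences of most members or effects shared by the probe sets of an array. With 3 arrays a group, precision is limited by their number. Genes are those of the platform annotation, which names 1 gene for 10802 probe sets, several for 135 and none for 4680. Named members are the 20 ranked highest, those called at 2 or more times, those in a gene list, those at the limits and their partner probe sets; others were named for a known role after their values were seen. The labels do not say that a replicate number marks 1 of the 3 time courses, and deviations from the group means of same-numbered TCDD and vehicle arrays correlated between -0.471 and 0.168, so the number entered the fit only as an alternative. Alternatives were quantile normalization, an offset of 16, other limits, the dap signal as a covariate, the arrays of 1 time alone, the replicate number as a block, and leaving out arrays. The myeloid list was also summed without probe sets of the cyp1a number, chosen after seeing the data.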

Additional observations from a re-analysis of the deposited data

How the results depend on the processing

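All 80 members stayed above 0 at the 4 times after quantile normalization of all arrays and with an offset of 16, and 79 with the dap signal as a covariate, the exception being prrx1a (-0.0091 at 12 h); 64, 62 and 66 stayed at or above 0.2. With a limit of 0.3, 43 probe sets passed in place of 88. Fitted on the 6 arrays of a time alone, limma called 0, 0, 3 and 9 members higher at 1, 2, 4 and 12 h. Over all 15502 probe sets it called 0, 0, 6 and 17 higher. An unadjusted limma p under 0.05 was found in 37, 47, 50 and 48 members. The share over all probe sets is not given for these, and the rule used the same contrasts, so nothing is read from them. With an offset of 16 limma called 11 members at 12 h, and 31 higher over all probe sets in place of 60. With the replicate number as a block it called 8, 9, 19 and 18 members, and 16, 13, 48 and 62 higher over all probe sets. Leaving out 1 array gave 71 to 100 probe sets passing (fewest without vehicle replicate 2 at 2 h) and 6 to 15, 5 to 11, 13 to 22 and 9 to 21 members called. Calls for a rise over all 15502 probe sets ranged from 7 to 158, 7 to 17, 31 to 62 and 32 to 72 at the 4 times. At 1 h the count of members was 15 without TCDD replicate 3, where calls over all probe sets went from 16 to 158. At 2 h it was 5 without vehicle replicate 1, vehicle replicate 2 or TCDD replicate 3 of that time. Calls over all probe sets were then 9, 7 and 11 in place of 13. At 12 h it was 9 without vehicle replicate 1 and 12 without TCDD replicate 3. Calls over all probe sets were then 32 and 34 in place of 60. Leaving out 1 replicate number gave 82 to 108 passing and 0 to 12, 0 to 3, 6 to 12 and 6 to 7 called, from fits with fewer arrays. Over all probe sets these fits called 0 to 122, 1 to 8, 13 to 30 and 14 to 22 higher. The share above vehicle in replicate 2 left out was 40% after quantile normalization and 52.3% with the offset, and in replicate 3 it was 51.4% with the offset. Otherwise the cause of these changes was not tested. Leaving out 1 of 3 arrays cannot move a difference by more than the spread between replicates, so by this measure those values could not differ. Of 2880 recomputed differences of the 80 members, 2845 moved by less than this spread and 35, all from the other alternatives, by more. None that limma had called turned below 0, but 12 others did, from 8 members: prrx1a with the covariate, and ch25hl1.1, dnaja3a, cdc42se1, slc35b4, prph, nrarpa and ndel1b with 1 array left out (-0.35 to -0.01).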
